A study of Homo sapiens with 6 samples.

Results

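The Notch pathway genes described here are the receptors NOTCH1, NOTCH2 and NOTCH3, the ligands JAG1 and JAG2, the glycosyltransferase LFNG, the protease ADAM10, the nuclear partners RBPJ and MAML1, and the target gene HES1. They were taken by symbol, and all 10 were found among the 20035 genes of the deposited table. RNA came from HaCaT cells, an immortalized line of human epidermal keratinocytes labelled wild type, and was sequenced after poly(A) selection in 6 libraries. The groups are 3 libraries treated with palmatine, a protoberberine plant alkaloid, and 3 control libraries whose treatment is given as none. The series describes a psoriasis model in which IL-17 is added before palmatine, but the labels do not state IL-17, a dose or a duration for either group. If the controls received no IL-17, palmatine and IL-17 cannot be told apart. Whether the replicates were grown as separate cultures is not stated. The p-values therefore reflect only library-to-library spread, which may be technical.

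Notch receptors are cell-surface proteins that bind Jagged or Delta-like ligands on a neighbouring cell. Ligand binding opens the receptor to cleavage by ADAM10 and then by gamma-secretase, and the released intracellular domain enters the nucleus, where it joins the DNA-binding protein RBPJ and a Mastermind coactivator to switch on genes such as HES1. In the epidermis this pathway is known for moving basal keratinocytes into the differentiating layers above them.

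The libraries held 12908646 to 17218171 counts each. The keratinocyte markers KRT5, KRT14 and TP63 averaged 2716 ± 209, 2135 ± 297 and 549 ± 29.5 CPM (counts scaled to a common library size, with TMM factors) in palmatine cells, against 2817 ± 71.2, 2245 ± 131 and 496 ± 9.67 CPM in control cells (SD, n = 3 each). The 10 keratinocyte markers summed to 10290 to 10670 CPM in palmatine libraries and to 9881 to 10460 CPM in control libraries. Of 12 markers of other skin cells, 4 were tested. The fibroblast collagen gene COL1A1 averaged 3.27 CPM in palmatine and 2.53 CPM in control cells, the melanocyte gene PMEL 1.66 and 1.78 CPM, the endothelial gene VWF 0.872 and 0.957 CPM, and the melanocyte gene MLANA, the one marker of these 4 whose palmatine libraries all lay above the controls, 0.848 and 0.497 CPM. The 12 markers summed to 6.33 to 8.18 CPM in palmatine libraries and to 4.63 to 7.74 CPM in control libraries, and their part in the results was not tested. COL1A2, CD207 and TYR had 0 counts in every library, which allows up to 0.168 to 0.240 CPM per library (3 counts, counting error only). Control 3 and palmatine 1 were the least alike of all 15 pairs of libraries, at a Pearson r of 0.985 in log2 CPM. Control 3 and control 2 correlated at 0.994. Long genes were low in control 3, with a slope of -0.088 in centred log2 CPM per doubling of gene length. The other slopes were 0.101, -0.039 and 0.063 in palmatine 1, 2 and 3, and 0.021 and -0.057 in control 1 and 2.

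None of the 10 Notch genes differed between palmatine and control cells past the threshold, an adjusted p of 0.05 over the 12356 genes tested (edgeR quasi-likelihood test, with DESeq2 and limma-voom also at 0 of 10). All 10 passed the filter on low counts. In bulk RNA, fewer cells expressing a gene and less RNA per cell cannot be told apart. Among all tested genes 0.0405% passed, all of them lower in palmatine. In 8 of the 10 the log2 fold change was positive, against 49.6% of all tested genes, and the median over the 10 was 0.18 against 0 over all tested genes. The count of positive values depended on scaling: it was 9 of 10 with library size alone and 10 of 10 on log2(TPM + 1), a scale that moved the median of all genes to 0.18. An unadjusted p under 0.05 was reached by 3 as higher (JAG1, MAML1 and RBPJ) and by 0 as lower, against 5.13% and 4.69% of all tested genes. In limma-voom the same 3 genes were higher and 0 lower. DESeq2 also gave 3 higher and 0 lower, but with NOTCH1 in place of RBPJ. The count of higher members fell to 2 (JAG1 and MAML1) once the trend of counts with gene length was removed from each library. It fell to 1 (MAML1) once the trend with GC share was removed as well. The 95% interval of the fold change excluded a 2-fold difference in all 10 genes and a 1.5-fold difference in 7, which leaves out NOTCH1, NOTCH2 and NOTCH3. Of all 12356 tested genes, 11720 had an interval that excluded a 2-fold difference, and 9810 one that excluded a 1.5-fold difference.

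These Notch genes differed far more from one another than between groups. In FPKM, which divides counts by gene length and library total, JAG1 was the most abundant at 25.7 ± 1.44 in palmatine and 21.1 ± 1.87 in control cells (SD, n = 3 each). ADAM10 followed at 23.0 ± 1.89 and 22.2 ± 1.41 FPKM in palmatine and control cells, and exceeded JAG1 in 2 of the 6 libraries, so their order is not settled. HES1, at 17.1 ± 0.614 FPKM in palmatine and 17.8 ± 1.07 FPKM in control cells, lay below ADAM10 in 6 of 6 libraries with no overlap of range. JAG2 at 17.3 ± 0.177 and 15.0 ± 1.93 FPKM, LFNG at 13.8 ± 0.917 and 13.2 ± 0.325 FPKM and MAML1 at 12.2 ± 1.29 and 9.75 ± 0.922 FPKM (palmatine and control in each case) formed a run in which each range overlapped the next. The receptors were lower. NOTCH1 stood at 7.28 ± 1.36 FPKM in palmatine and 5.27 ± 1.56 FPKM in control cells, below MAML1 in every library. NOTCH2 stood at 4.35 ± 0.827 and 3.45 ± 0.961 FPKM, and RBPJ at 3.44 ± 0.201 and 2.92 ± 0.0476 FPKM, with overlapping ranges. NOTCH3 was the least abundant, at 0.694 ± 0.110 FPKM in palmatine and 0.586 ± 0.210 FPKM in control cells, below RBPJ in every library. Each Jagged gene exceeded each receptor gene in FPKM in all 6 libraries, as the plot of levels per library shows.

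**Figure D1:**
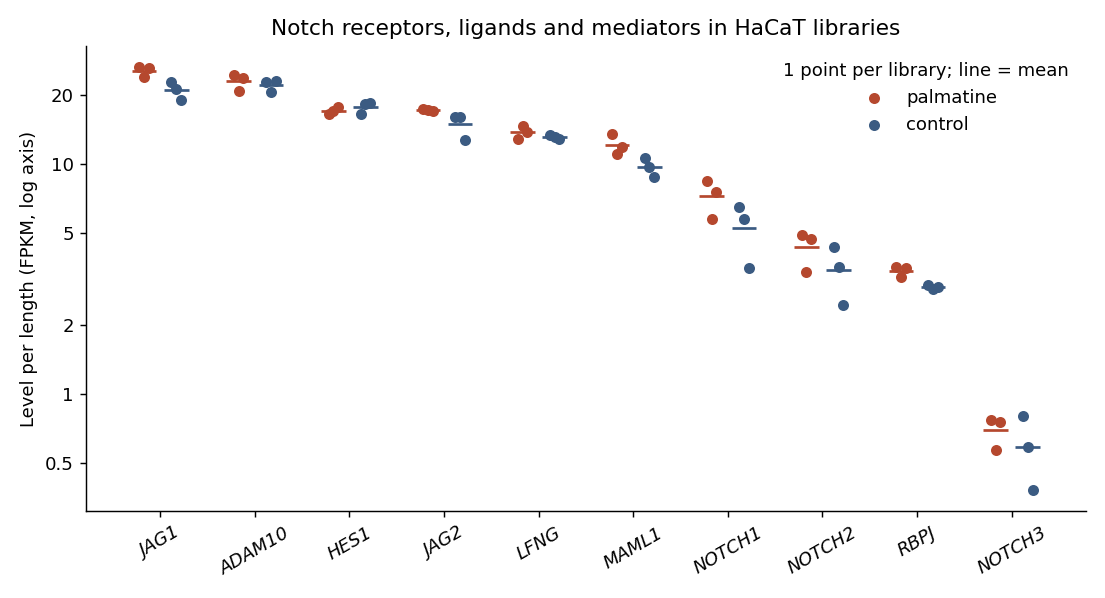
Level per length of the 10 Notch genes (y axis, FPKM, log axis), ordered from the highest to the lowest mean over the 6 libraries, with 1 point per library, a line at the mean of 3 libraries, and palmatine left of control. JAG1 and ADAM10 lie near 20 FPKM or above, and NOTCH3 lies below 1 FPKM in every library.

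NOTCH1 (ENSG00000148400, chr9:136494433-136546048, minus strand, GRCh38 as for all genes here) encodes the receptor best known for driving keratinocyte commitment to differentiation. It had 102, 71.6 and 93.7 CPM in palmatine 1, 2 and 3, against 82.8, 74.2 and 45.5 CPM in control 1, 2 and 3. The groups overlapped: palmatine 2 lay below control 1 and control 2, and control 3 was far the lowest. The log2 fold change was 0.40 ± 0.20 (SE), with an adjusted p of 0.455, a ratio of 1.32 with a 95% interval from 0.963 to 1.81. No other member had a larger fold change.

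NOTCH2 (ENSG00000134250, chr1:119911553-120100779, minus strand), another receptor of keratinocytes, had 79.5, 56.4 and 78.0 CPM in palmatine 1, 2 and 3, against 74.1, 60.9 and 42.2 CPM in control 1, 2 and 3. Again palmatine 2 lay within the control range and control 3 was lowest. Its log2 fold change was 0.27 ± 0.19 (SE, adjusted p = 0.523). Part of NOTCH2 has near-identical copies in the NOTCH2NL genes, so its counts may be shared with them. The table lists NOTCH2NLA, NOTCH2NLB and NOTCH2NLC at 7 to 49 counts per library each and NOTCH2NLR at 3 to 6, against 528 to 1419 counts for NOTCH2.

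NOTCH3 (ENSG00000074181, chr19:15159038-15200995, minus strand), a receptor best known from vascular smooth muscle, had 6.95, 5.28 and 6.93 CPM in palmatine 1, 2 and 3, against 7.62, 5.596 and 3.68 CPM in control 1, 2 and 3. The highest and the lowest value were both control libraries. Its log2 fold change was 0.18 ± 0.23 (SE, adjusted p = 0.718).

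The 3 receptors followed the same order across the control libraries, control 1 above control 2 above control 3, and palmatine 2 was the lowest palmatine library for each. In control 3 the centred log2 CPM was -0.74 for NOTCH1, -0.59 for NOTCH2 and -0.65 for NOTCH3, against -0.24 for JAG1, -0.28 for JAG2, 0.13 for HES1 and 0.08 for ADAM10. The receptor fold changes moved with single libraries: without control 3 the log2 fold changes were 0.18 for NOTCH1, 0.081 for NOTCH2 and -0.034 for NOTCH3, without control 1 they were 0.57, 0.46 and 0.45, and without palmatine 2 they were 0.54, 0.42 and 0.30. As a share of the receptors, NOTCH1 made up 59.8, 59.3 and 58.1% of the summed receptor FPKM in palmatine 1, 2 and 3, and 55.8, 58.3 and 55.5% in control 1, 2 and 3, so the groups overlapped. NOTCH3 made up 5.65% ± 0.213 in palmatine and 6.22% ± 0.536 in control cells (SD, n = 3 each). Its share was 5.41, 5.82 and 5.72% in palmatine 1, 2 and 3, all below the 6.84, 5.86 and 5.98% in control 1, 2 and 3. The closest values, in palmatine 2 and control 2, came from 81 and 86 NOTCH3 counts, too few to tell 5.82% from 5.86%. The difference in share was not tested.

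**Figure D2:**
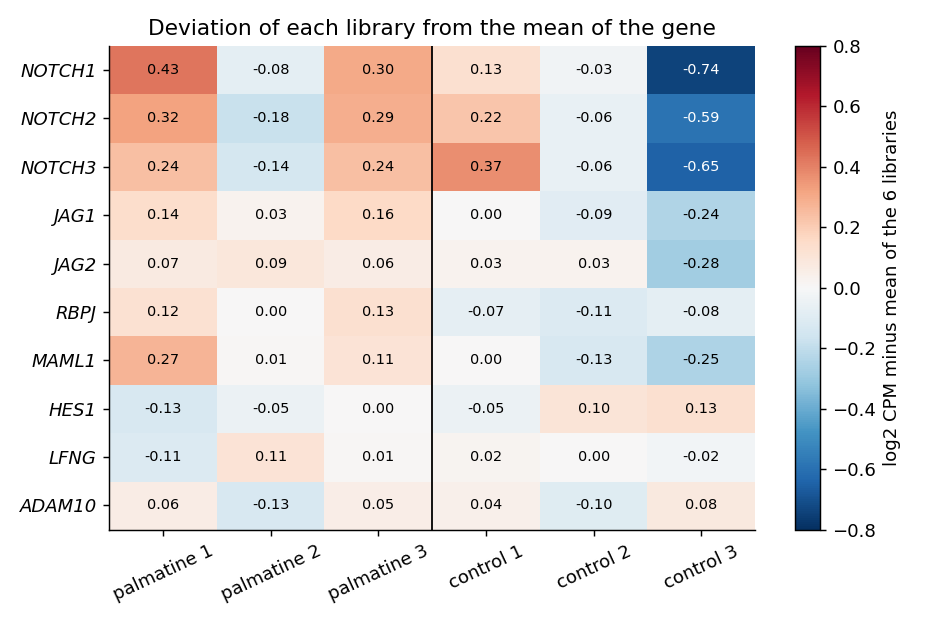
Deviation of each library from the mean of the gene over 6 libraries (log2 CPM, colour and printed value), with palmatine libraries left of the line and control libraries right of it. NOTCH1, NOTCH2 and NOTCH3 are at -0.74, -0.59 and -0.65 in control 3, whereas HES1 is at 0.13 and ADAM10 at 0.08 there.

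JAG1 (ENSG00000101384, chr20:10637684-10673999, minus strand), the more abundant Jagged ligand, had 238, 221 and 242 CPM in palmatine 1, 2 and 3, against 215, 203 and 183 CPM in control 1, 2 and 3. Every palmatine library lay above every control library, which was so for 4 of the 10 members (JAG1, JAG2, RBPJ and MAML1) and for 6.68% of all tested genes; no member lay wholly below, against 5.71% of all tested genes. The log2 fold change of JAG1 was 0.22 ± 0.077 (SE), a ratio of 1.16 with a 95% interval from 1.03 to 1.31 (adjusted p = 0.455). JAG2 (ENSG00000184916, chr14:105140982-105168824, minus strand), the related ligand, had 107.5, 109.5 and 107.5 CPM in palmatine 1, 2 and 3, against 104.8, 105.1 and 84.3 CPM in control 1, 2 and 3. Its palmatine libraries were close together and control 3 was again lowest. The log2 fold change was 0.14 ± 0.091 (SE, adjusted p = 0.495), and 0.043 without control 3. JAG1 made up 59.7% ± 1.44 of the summed Jagged FPKM in palmatine and 58.5% ± 1.41 in control cells (SD, n = 3 each).

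LFNG (ENSG00000106003, chr7:2512529-2529177, plus strand), the Lunatic fringe glycosyltransferase that adds sugars to Notch receptors and alters their response to ligands, had 42.8, 50.1 and 46.6 CPM in palmatine 1, 2 and 3, against 47.1, 46.2 and 45.5 CPM in control 1, 2 and 3. The control libraries sat within the palmatine range. In log2 terms the difference was 0.0054, with a 95% interval from -0.17 to 0.18 (adjusted p = 0.979). ADAM10 (ENSG00000137845, chr15:58588809-58749791, minus strand), the protease that makes the first ligand-dependent cut in the receptor, had 377, 330 and 373 CPM in palmatine 1, 2 and 3, against 372, 336 and 381 CPM in control 1, 2 and 3. The groups overlapped almost fully. The difference of -0.013 on the log2 scale had a 95% interval from -0.19 to 0.17 (adjusted p = 0.947), and the sign depended on the scaling of libraries: it was 0.051 with library size alone. The annotation places 4 genes on the opposite strand within ADAM10 and 1 each within NOTCH1, NOTCH2 and JAG1. No source used here states the strand setting of the counting, so reads of such pairs cannot be told apart.

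RBPJ (ENSG00000168214, chr4:26163455-26435131, plus strand), the DNA-binding partner of the Notch intracellular domain, had 52.9, 48.6 and 53.2 CPM in palmatine 1, 2 and 3, against 46.1, 44.9 and 46.0 CPM in control 1, 2 and 3. The control libraries were tightly grouped below all palmatine libraries. The log2 fold change was 0.18 ± 0.072 (SE, adjusted p = 0.455), and 0.049 once the trend of counts with gene length was removed from each library. GENCODE 29 names 4 pseudogenes of RBPJ, with which its reads may be shared. MAML1 (ENSG00000161021, chr5:179732822-179777283, plus strand), a Mastermind coactivator, had 78.1, 65.2 and 69.9 CPM in palmatine 1, 2 and 3, against 64.7, 59.3 and 54.4 CPM in control 1, 2 and 3. Palmatine 2 stood just above control 1. MAML1 had a log2 fold change of 0.26 ± 0.093 (SE), a ratio of 1.195 with a 95% interval from 1.03 to 1.38 (adjusted p = 0.455).

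HES1 (ENSG00000114315, chr3:194136148-194138732, plus strand) encodes a transcriptional repressor and is the most widely used direct readout of Notch signalling. It had 32.8, 34.7 and 35.9 CPM in palmatine 1, 2 and 3, against 34.6, 38.6 and 39.2 CPM in control 1, 2 and 3. Palmatine 2 and palmatine 3 lay above control 1, so the groups overlapped. The log2 fold change was -0.12 ± 0.082 (SE), with a 95% interval from -0.31 to 0.062 (adjusted p = 0.506), and -0.0044 with the length trend removed; on log2(TPM + 1) its sign turned, at 0.081. HES1 was highest in control 3, the library in which the receptors were lowest. It was one of 2 members with a negative log2 fold change, the other being ADAM10.

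The bases before the HES1 start are shown because they carry the sites through which RBPJ is known to act on this gene, and HES4 and RBPJ are set beside it as the other genes examined here with GTGGGAA. All 10 members matched a RefSeq promoter by symbol. HES4 was chosen after its values were seen. Each line gives the 120 bases before a RefSeq transcription start (GRCh38.p14), 5′ to 3′ on the strand of the gene, at chr3:194136028-194136147 (plus) for HES1, chr1:1000098-1000217 (minus) for HES4 and chr4:26319626-26319745 (plus) for 1 of 5 listed RBPJ starts. Capitals mark TGGGAA, the longer GTGGGAA that contains it, and GTGTGAA, on either strand, so that the reverse-strand forms read TTCCCAC and TTCACAC.
HES1: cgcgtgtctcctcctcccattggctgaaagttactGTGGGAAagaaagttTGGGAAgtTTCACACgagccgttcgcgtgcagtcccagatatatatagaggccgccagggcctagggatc
HES4: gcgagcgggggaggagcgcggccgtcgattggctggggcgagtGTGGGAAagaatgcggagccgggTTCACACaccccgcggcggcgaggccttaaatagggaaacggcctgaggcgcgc
RBPJ: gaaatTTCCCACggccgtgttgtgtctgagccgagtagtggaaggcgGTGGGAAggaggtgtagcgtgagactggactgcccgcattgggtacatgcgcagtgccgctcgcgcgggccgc

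HES1 and HES4 share a facing pair, GTGGGAA followed after 16 bases by TTCACAC, with the first letter 85 bases before the start in HES1 and 77 in HES4. Of 35116 RefSeq promoters, 2 held this exact pair with this gap in the 250 bases before the start, HES1 and HES4; the gap was taken from HES1, so the count is a description. TGGGAA alone occurred in 20.8% of those promoters, GTGGGAA in 5.43% and GTGTGAA in 2.48%. Among the other members, TGGGAA was found before 1 start of LFNG and 1 start of RBPJ. The match of letters says nothing of binding in these cells. HES4, a repressor related to HES1, had 5.55, 7.89 and 5.00 CPM in palmatine 1, 2 and 3, against 6.16, 8.003 and 9.03 CPM in control 1, 2 and 3, and a difference of -0.34 ± 0.20 on the log2 scale (SE, adjusted p = 0.468). Neither gene with the facing pair passed the threshold, and both had overlapping groups.

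Other genes of the pathway were described from 5 lists with 60 genes, of which 51 were tested. None passed (edgeR, DESeq2 and limma-voom each 0), and 4 lay higher and 0 lower with an unadjusted p below 0.05, against 5.13% and 4.69% of all tested genes. There were 33 positive and 18 negative log2 fold changes, against 49.6% positive over all tested genes, and the median was 0.05. Palmatine libraries lay wholly above the controls in 4 of the 51 and wholly below in 2 (HDAC1 and MYC). Among all tested genes these shares were 6.68% and 5.71%. Among other receptors and ligands, DLL1, a Delta-like ligand of basal keratinocytes, averaged 22.2 ± 1.36 CPM in palmatine and 21.0 ± 0.235 CPM in control cells, and DLK2, a Delta-like homologue, 21.5 ± 3.42 and 23.2 ± 2.01 CPM (SD, n = 3 each). Their log2 fold changes were 0.077 and -0.12. NOTCH4, DLL3 and DLL4 had 0 to 4 counts per library and DLK1 had 0 in every library, which left these 4 untested and too low for any difference to be seen at the present depth.

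All 12 genes of receptor glycosylation and cleavage were tested and none passed, with 10 positive and 2 negative values and a median log2 fold change of 0.06. APH1B and APH1A encode alternative subunits of gamma-secretase. APH1B averaged 3.40 ± 0.664 CPM in palmatine and 2.45 ± 0.395 CPM in control cells, a log2 difference of 0.47 ± 0.21 (SE, adjusted p = 0.455). The more abundant APH1A averaged 180.0 ± 23.0 CPM in palmatine and 201 ± 10.5 CPM in control cells, a log2 difference of -0.16 ± 0.094 (SE, adjusted p = 0.474). Of 13 genes of endocytosis and turnover, 12 were tested and none passed, with a median of 0.04. ITCH, a ubiquitin ligase, had a log2 fold change of 0.11, MIB2, a ligase that acts on ligands, one of -0.18, and NEDD4, the most abundant of the list per length, one of -0.075, with adjusted p from 0.455 to 0.70 in edgeR.

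None of the 18 nuclear coactivators and corepressors passed, and an unadjusted p under 0.05 was met by 3 as higher and 0 as lower, where 5.13% and 4.69% of all tested genes did; the median log2 fold change was 0.06. TLE3, a Groucho-type corepressor, averaged 66.6 ± 10.9 CPM in palmatine and 51.3 ± 7.53 CPM in control cells, a log2 difference of 0.38 ± 0.14 (SE, adjusted p = 0.455). EP300, an acetyltransferase recruited by the Notch complex, was chosen after its values were seen. EP300 had 126, 82.5 and 122 CPM in palmatine 1, 2 and 3, against 106, 69.8 and 57.5 CPM in control 1, 2 and 3. It had the library order of the receptors within the control group, with control 3 lowest, and overlapping groups. The log2 difference of EP300 was 0.51 ± 0.22 (SE, edgeR adjusted p = 0.455). For HDAC1, the most abundant of the list per length, the log2 fold change was -0.12, with an adjusted p of 0.459.

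Of 11 further Notch target genes 7 were tested and none passed, with 3 positive and 4 negative values and a median of -0.05. MYC, a growth regulator, averaged 93.5 ± 2.35 CPM in palmatine and 101 ± 2.24 CPM in control cells (SD, n = 3 each), and the log2 fold change was -0.11, at an adjusted p of 0.459. HEYL had 0 counts in every library, and HES5, HES7 and HEY2 had 0 to 10 counts, so these 4 were not tested. Among 6 genes of the spinous layer, which Notch is known to promote, 4 were tested and none passed. KRT1 averaged 2.02 ± 0.310 CPM in palmatine and 1.93 ± 0.340 CPM in control cells, KRT10 36.8 ± 7.44 and 41.7 ± 5.86 CPM, and the crosslinking enzyme TGM1 34.3 ± 0.779 and 37.8 ± 3.31 CPM (SD, n = 3 each), with log2 fold changes of 0.045, -0.18 and -0.14. DSG1 and DSC1, desmosomal genes of the upper layers, had 0 to 6 counts per library and were not tested.

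**Figure D3:**
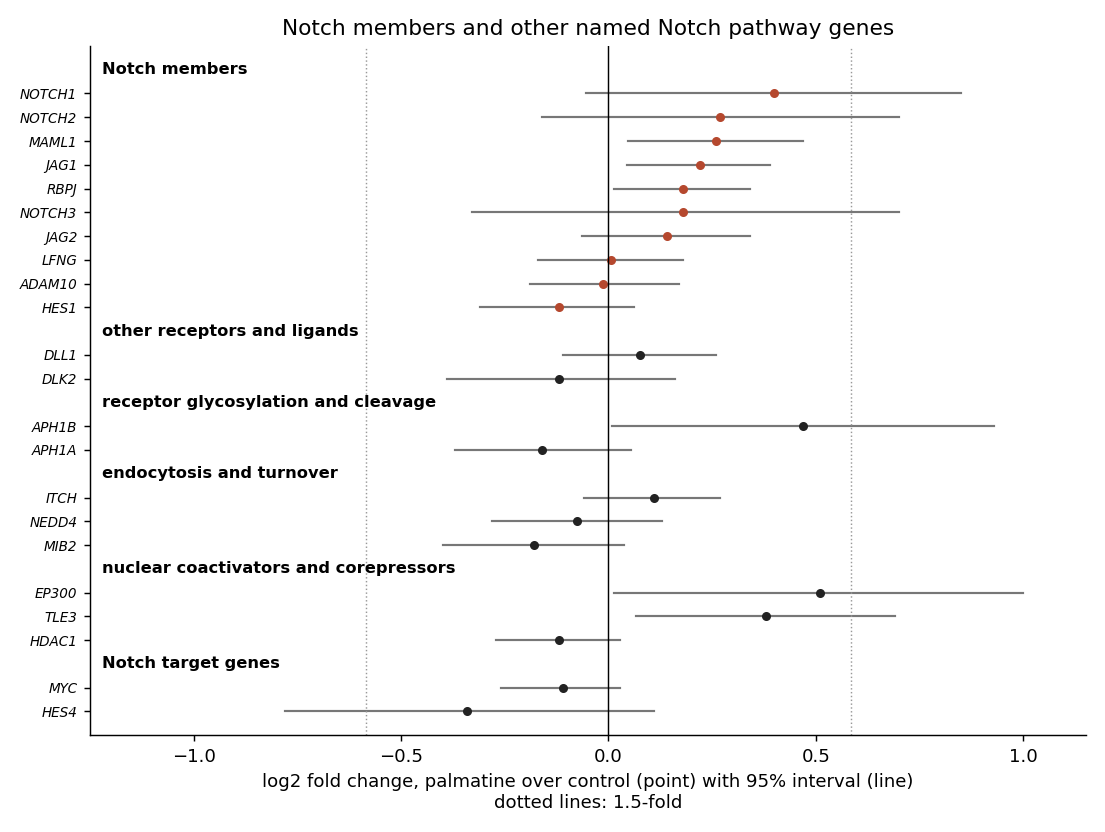
Log2 fold change of palmatine over control (x axis; points) with 95% intervals (lines) for the 10 Notch genes and the 12 other pathway genes named with a value, grouped by role. The values run from -0.12 to 0.40 in the 10 Notch genes, and no gene shown passed the threshold.

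Gene length moved with the fold changes. Over all tested genes the Spearman correlation of log2 fold change with the length given in the table was 0.443, a description across genes that share the same 6 libraries. The members were long, with a median length of 9353 bases against 5480 bases over all tested genes. Between 5000 and 17000 bases lay 8 of the 10 members and 6417 tested genes, and of those tested genes 63.5% had a positive log2 fold change, with a median of 0.05. HES1 and LFNG, at 2059 and 3440 bases, were the shortest members and had log2 fold changes of -0.12 and 0.0054. ADAM10 and RBPJ, at 15979 and 15311 bases, were among the longest members beside NOTCH2 at 16744 bases, and in control 3 their centred log2 CPM was 0.08 and -0.08, against -0.59 for NOTCH2. Over all tested genes the Spearman correlation of that library's deviation with gene length was -0.392. With GC share, over the tested genes that had one, it was -0.23. The GC share was 38.3% in ADAM10 and 38.0% in RBPJ, against 49.4% in NOTCH2, 62.9% in NOTCH1 and 63.1% in NOTCH3. LFNG, at 62.7%, stood at -0.02 in control 3. The part of GC share in the control 3 values was not tested. With the length trend removed, the median over the members was 0.10 and the values were 0.29 for NOTCH1, 0.15 for NOTCH2, 0.10 for NOTCH3, 0.14 for JAG1, 0.10 for JAG2, 0.049 for RBPJ and 0.22 for MAML1. LFNG stood at 0.045. For ADAM10 the log2 fold change then was -0.14, farther from 0 than the -0.013 before, and no member passed the threshold. Where the length trend comes from was not tested.

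**Figure D4:**
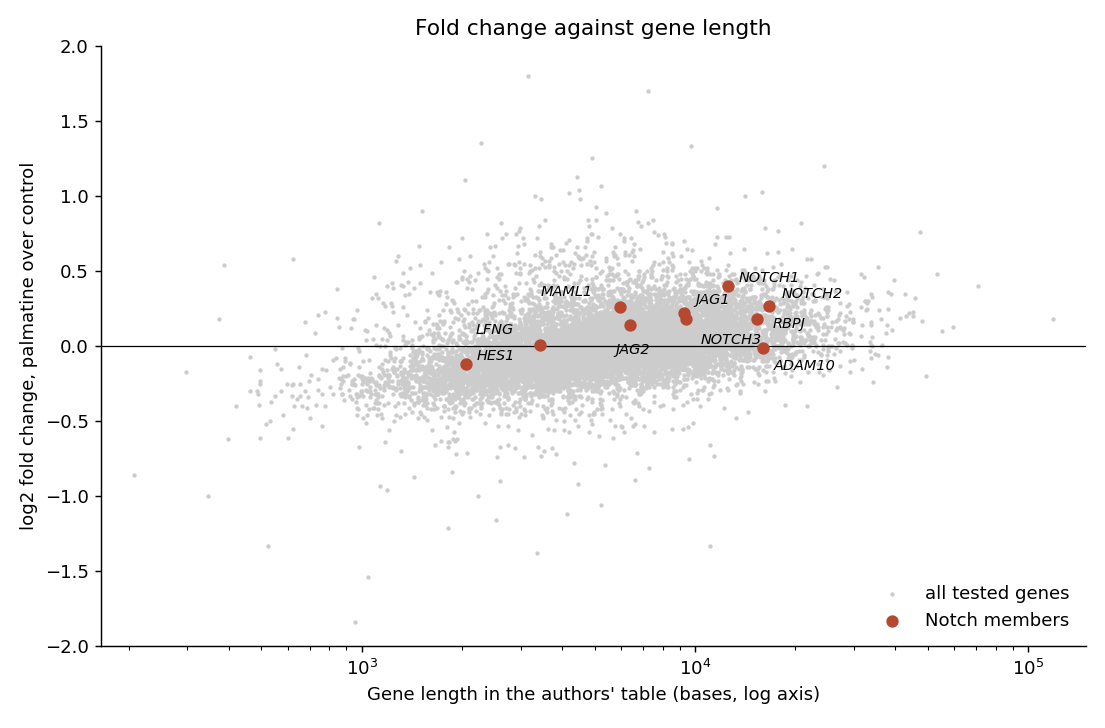
Log2 fold change of palmatine over control (y axis) against gene length (x axis, bases, log axis) for all 12356 tested genes (grey) and the 10 Notch genes (red). The grey cloud rises with length (Spearman 0.443), and HES1 and LFNG are the shortest of the 10.

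Likeness over the 6 libraries was taken as the root mean square difference of centred log2 CPM. By this measure, genes that vary little lie close whatever their pattern. Each member was compared with the other members only, so closer genes outside this set may exist. Within the members, NOTCH2 and NOTCH3 were most alike to each other at 0.08, and NOTCH2 was the member most like NOTCH1 at 0.09. JAG1 and MAML1 were most alike to each other at 0.06, and JAG1 was also the closest to JAG2 at 0.08 and to RBPJ at 0.07. HES1 and LFNG were closest to each other at 0.11, and RBPJ was the closest to ADAM10 at 0.11. These distances are near the size of the genes' own deviations, so no shared pattern is read from them. The deviations ran from -0.13 to 0.13 in HES1, -0.11 to 0.11 in LFNG, -0.11 to 0.13 in RBPJ and -0.13 to 0.08 in ADAM10. For HES1 alone the search was also made over all tested genes. There BPNT1, DENND10 and SKA2 came closest, at 0.012, 0.014 and 0.016, all closer to HES1 than any member.

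Single libraries also set the number of small p-values. Leaving out control 3 brought the members with an unadjusted p under 0.05 to 0 of 10, with 1.59% of all tested genes higher, and leaving out palmatine 1 to 0 of 10, with 1.38%. Leaving out palmatine 3 or control 2 gave 1 of 10, with 1.56% and 2.29% of all tested genes higher. Leaving out control 1 or palmatine 2 gave 4 of 10, with 11.7% and 12.5%. Among these fits without 1 library, the count among the members was high where the share among all genes was high. With all 6 libraries the count was 3 in DESeq2, with 4.24% of all tested genes higher. It was also 3 with library size alone, with 12.5%, and 6 on log2(TPM + 1), with 39.9%.

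**Figure D5:**
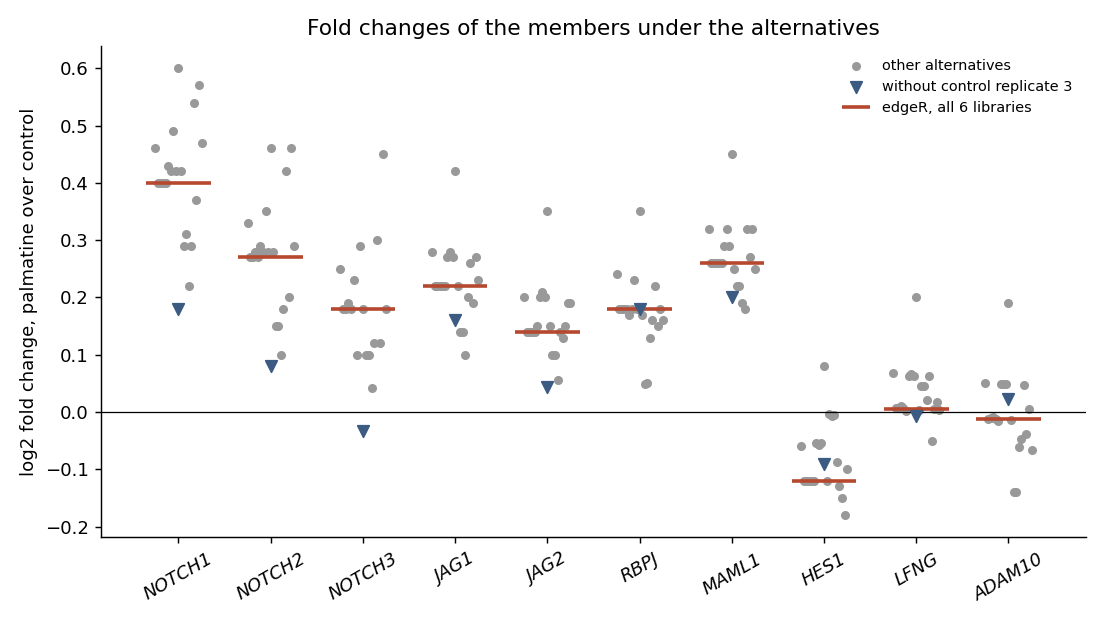
Log2 fold change of palmatine over control (y axis) of each Notch gene with all 6 libraries (red line), without control replicate 3 (triangle) and under the other alternatives (grey points, 1 per setting). NOTCH1, NOTCH2 and NOTCH3 shift to 0.18, 0.081 and -0.034 without control replicate 3, and NOTCH1, NOTCH2, JAG1, JAG2, RBPJ and MAML1 are above 0 under every alternative drawn.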

How the data were processed

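Poly(A) RNA of 3 palmatine and 3 control libraries was compared, with groups and replicate numbers from the sample titles. Per the file headers, the deposited values are unnormalized counts and FPKM. The submitters' processing notes name HISAT2 2.1.0 and HTSeq 0.9.1; no source used here gives the build, annotation, strand setting or multi-mapping rule. The authors' FPKM equalled count over length and library total for 100% of values above 0 (relative tolerance 1e-05). Of the table's gene IDs, 19851 were found in GENCODE 29 and 100% of these overlapped the same locus and strand, so coordinates follow GRCh38.

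Genes were kept with filterByExpr (minimum count 10; 12356 genes), scaled by TMM (0.970 to 1.04) and tested with the edgeR 4.0.16 quasi-likelihood test in R 4.3.3, with no covariates, two-sided, adjusted by Benjamini-Hochberg over all tested genes. Standard errors were derived from the F statistic, and intervals are 95% intervals. Centred log2 CPM used a prior count of 2. DESeq2 1.42.0, limma 3.58.1, other scalings, filters and units, a replicate block, leaving out each library, and loess trends (span 0.3) on gene length were alternatives; one with GC share added was chosen after seeing the data. On simulated counts the procedure recovered 67.1% of 1.5-fold, 91.2% of 2-fold and 100% of 3-fold changes, and called 12 unchanged genes. Smaller changes were not simulated. Named were all members and, per pathway list, the gene with the smallest p in each direction and the one with the highest mean FPKM. Members and lists were chosen with earlier results of these data known. Promoter sequences are from RefSeq (GRCh38.p14). Some listed genes are not reported here. One line of the table, emptied beforehand, was not analysed here.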

Additional observations from a re-analysis of the deposited data

How the results depend on the processing

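With 3 libraries a group, 20 alternatives were run, and the count of Notch members past the threshold was 0 under all of them, as was that of the other pathway genes, leaving out each library included (0 to 0). Their smallest adjusted p was 0.0822, on log2(TPM + 1). The count over all tested genes, 5 with all libraries, was 8 with no count filter, 14 in DESeq2, 0 with limma on unfiltered log2(FPKM + 1), 8 with the length trend removed and 5 to 6 without single libraries. With the replicate number as a block it was 9, and 26 with the block and the length trend removed, and no member was called under either; same-numbered libraries correlated in their deviations at 0.40, 0.18 and -0.10, so the numbers were not taken as pairs, and not every library correlated best with its own number. The members' median log2 fold change, 0.18, was 0.35 on log2(TPM + 1), 0.08 with length and GC trends removed and 0.06 to 0.24 without single libraries. The cause was not tested in any of these. Positive and negative values over all tested genes numbered 6132 and 6224, against 7989 and 4367 with library size alone and 10469 and 1329 on log2(TPM + 1). Over the named genes and alternatives, 579 log2 fold changes kept their sign and 39 turned. With library size alone ADAM10 was 0.051 and KRT5 0.010. In limma, ADAM10 was 0.048 and KRT5 0.0084 on log2(FPKM + 1), filtered or not, and 0.049 and 0.0084 with a pseudocount of 0.1. On log2(TPM + 1), HES1 was 0.081, ADAM10 0.19, DLK2 0.081, APH1A 0.040, MIB2 0.018, NEDD4 0.12, HDAC1 0.081, MYC 0.087, TGM1 0.065, KRT10 0.012, KRT5 0.15, KRT14 0.12 and PMEL 0.073. With the length trend removed ITCH was -0.0059 and KRT14 0.025, with the block as well -0.0034 and 0.023, and with GC added KRT14 was 0.012. Leaving out single libraries gave -0.034 (without control 3) to 0.45 for NOTCH3, -0.050 (without palmatine 2) to 0.062 for LFNG, with -0.0062 without control 3, and -0.067 to 0.047 (without palmatine 2) for ADAM10, with 0.0045 without control 1 and 0.023 without control 3. The range was -0.13 to 0.0078 (without palmatine 2) for NEDD4, -0.19 to 0.0038 (without palmatine 1) for KRT14, -0.083 (without palmatine 3) to 0.19 for KRT1, with -0.069 without control 3, -0.54 to 0.20 (without palmatine 2) for VWF, with 0.18 without control 2, and -0.28 to 0.11 (without control 2) for PMEL. Depth limits the genes with under 10 counts per library, which include NOTCH4, DLL3, DLL4 and HES5.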
